A study of Sus scrofa with 95 samples.

Results

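The liver libraries of infant pigs given linrodostat during cardiopulmonary bypass were compared with those of pigs that had the same bypass without the drug. The members were chosen by organ and treatment label: 4 linrodostat and 7 bypass livers, with 8 control livers as reference levels, which makes 19 liver libraries of 95 in the series. All animals were infant pigs of 5 to 10 kg. The controls had anesthesia alone and no drug, the bypass group (CPB) had cardiopulmonary bypass with deep hypothermic circulatory arrest of 75 minutes and no drug, and the linrodostat group had the same bypass and arrest plus 75 mg of linrodostat. The labels do not give the age, the strain or the time and route of the dose. They do give the sex, with controls of both sexes, and sex entered only an alternative fit. Liver was taken after euthanasia, whereas ileum and kidney were taken just before it. Each library comes from a separate animal, so the p-values measure the spread between animals. In the main fit that spread was estimated over all 19 livers and taken as equal in the 3 groups. Only 4 of the animals were treated, so the spread among treated animals itself is poorly known.

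Linrodostat inhibits IDO1, an enzyme that opens the tryptophan ring and so starts the kynurenine pathway. In the liver the same step is carried out mainly by another enzyme, TDO2, and the later enzymes KMO, KYNU, HAAO and QPRT carry the products on toward NAD. Kynurenine can also bind the aryl hydrocarbon receptor (AhR), a transcription factor that drives CYP1A1 and CYP1A2. Liver RNA comes mostly from hepatocytes, which make albumin, clotting factors, urea and bile acids.

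Liver libraries held 27791723 to 49739383 counts, and those of the linrodostat group 33712730 to 42536322. Of 35670 genes in the deposited table, 15406 passed the filter on low counts and were tested with edgeR's quasi-likelihood test. The filter needed enough counts in only 4 libraries, the smallest group size, so the linrodostat livers alone could carry a gene through it. Levels are given as CPM, that is, counts brought to a common library total with TMM scaling, differences as log2 fold changes with their standard error, and a gene is called where its Benjamini-Hochberg adjusted p over all 15406 genes is under 0.05. Because CPM is not divided by transcript length, levels are compared between animals and never between genes. The hepatocyte marker albumin (ALB) stood at 43877, 38741, 42402 and 47225 CPM in linrodostat animals 12, 18, 20 and 24, and every list of per-animal values for this group follows that order. In bulk tissue, fewer cells of a type and less RNA per cell cannot be told apart.

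Genes were sorted by where control pigs express them, using the control animals only. A gene was ileum-typical where its median over the 8 control ilea was at least 2 CPM and at least 10 times its median over the control livers, liver-typical where the reverse held, and shared otherwise. This gave 1328 ileum-typical, 490 liver-typical and 13588 shared genes among those tested. Liver-typical genes took 41.0 to 43.9% of the counts in linrodostat livers and 42.0 to 45.8% in CPB livers. Ileum-typical genes took 0.502 to 0.836% in linrodostat livers and 0.355 to 0.571% in CPB livers, with medians of 0.541 and 0.370%. In control livers they took 0.447 to 0.728% with a median of 0.543%, close to that of the linrodostat livers.

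Linrodostat livers differed from CPB livers in 119 genes, 0.772% of those tested, of which 117 (0.759%) were higher and 2 (0.013%) were lower. Of the 119, 113 were ileum-typical, 5 were shared and 1 was liver-typical, and all 113 ileum-typical ones were higher. The called genes thus came from epithelial and other genes of the gut: FABP6, the ileal bile acid binding protein, SI, the sucrase-isomaltase of the brush border, CDH17, an intestinal cadherin, and OLFM4, a marker of intestinal stem cells. Of the liver-typical genes TARS3, which belongs to the threonyl-tRNA synthetase family, was lower. The call share was 8.51% among ileum-typical, 0.204% among liver-typical and 0.0368% among shared genes. The median log2 fold change was 0.47, -0.14 and -0.03 in the same order, beside -0.01 over all tested genes. For the ileum-typical genes the median was -0.43 in CPB minus control and 0.17 in linrodostat minus control. Over this class the CPB livers were thus the low group.

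**Figure D1:**
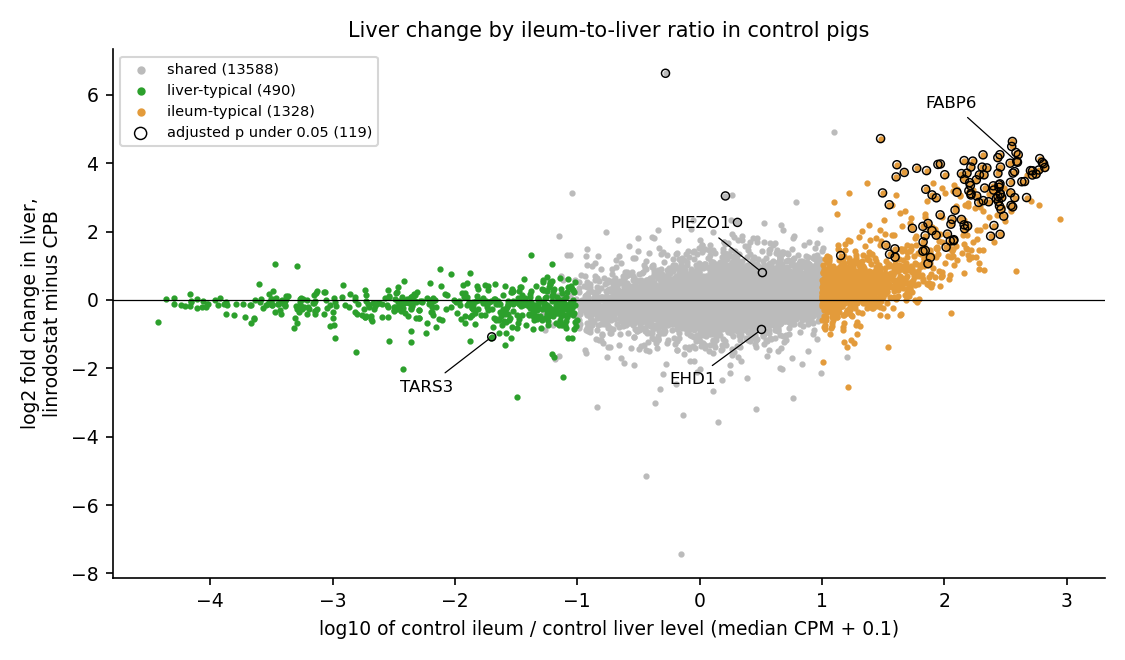
Each point is 1 tested gene, placed by the log10 ratio of its control ileum to its control liver level (x axis) and its log2 fold change in liver, linrodostat minus CPB (y axis); colours mark the 3 gene classes and open circles the 119 called genes. Nearly all open circles lie at the far right, among the 1328 ileum-typical genes, and the 490 liver-typical genes on the left lie near 0 apart from a few.

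The share of called genes followed the ileum-to-liver ratio in control pigs. Of 846 genes with a ratio of 10 to 30, 1 was called (0.118%), and the median log2 fold change was 0.33. Of 299 genes with a ratio of 30 to 100, 27 were called (9.03%), with a median of 0.74. Of 121 genes with a ratio of 100 to 300, 42 were called (34.7%), with a median of 2.11. Of 62 genes with a ratio over 300, 43 were called (69.4%), with a median of 3.18. From step to step of the ratio, both the share of called genes and the median log2 fold change were higher. The steps hold only the 1328 tested genes of 1614 ileum-typical genes in the table. A gene scarce in control and CPB livers could pass the filter on low counts through the linrodostat livers alone. Part of this rise may thus follow from the filter.

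FABP6, which carries bile acids through ileal enterocytes, stood at 39.6, 112, 29.0 and 54.1 CPM in the linrodostat livers, at 1.05 to 6.05 CPM (median 3.87) in the CPB livers and at 0.874 to 25.3 CPM (median 8.97) in the controls. Every linrodostat liver lay above every CPB and every control liver. The log2 fold change over CPB was 4.03 ± 0.76 (SE), with an adjusted p of 0.0147 in edgeR's quasi-likelihood test. In control ileum the median of FABP6, by plain library totals, was 3798 CPM, far above any liver. By RefSeq symbol FABP6 lies on chromosome 16 at 63297594 to 63303675 of Sscrofa11.1.

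The enterocyte list, of 30 markers of the absorptive cells of the gut, had 25 tested members, of which 12 were called and all 12 were higher, beside 0.759% of all tested genes called higher. The list's median log2 fold change was 2.72, beside -0.01 for all tested genes. SI stood at 6.33, 33.7, 9.66 and 14.3 CPM in linrodostat livers and at 0.298 to 1.89 CPM (median 0.781) in CPB livers, with no overlap and a log2 fold change of 4.13 ± 0.76 (edgeR adjusted p = 0.0124). CDH17 stood at 6.18, 16, 3.27 and 6.19 CPM against 0.112 to 0.792 CPM (median 0.407), also with no overlap (4.02 ± 0.69). The other called enterocyte genes included the glucose transporter SLC5A1 (log2 fold change 2.16), the keratin KRT20 (3.65), the hormone precursor GUCA2A (3.66) and the fatty acid binding protein FABP2 (3.85). The 5 tested members that control liver also expresses to within 10 times of ileum had a median of 0.04 and none was called. Among them MGAM, a starch-digesting enzyme, had -0.30 ± 0.25, APOA4, an apolipoprotein, had 0.04 ± 1.11 and the tight junction gene CLDN15 had 0.65 ± 0.33.

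Stem and secretory cell genes of the gut were higher as well. Of 12 tested members of the list for intestinal stem and secretory cells, 7 were called, all higher, beside 0.759% of all tested genes called higher. The list has 19 genes in the table, and those not tested failed the filter on low counts. A gene scarce in CPB and control livers could pass that filter through the linrodostat livers alone. The 7 of 12 and the list's median may thus be raised by the filter. The list's median log2 fold change was 3.69, beside -0.01 for all tested genes. OLFM4 stood at 10.7, 33.2, 13.3 and 19.7 CPM in linrodostat livers and at 0.203 to 2.11 CPM (median 1.27) in CPB livers. LYPD8, a surface protein of the intestinal epithelium, stood at 14.0, 47.3, 11.4 and 18.1 CPM against 0.352 to 3.21 CPM (median 0.930). Neither gene overlapped between the groups, and their log2 fold changes were 4.06 ± 0.83 and 4.05 ± 0.69 (edgeR adjusted p = 0.0235 and 0.00945). CLCA1 and SPINK4, products of goblet cells, had log2 fold changes of 3.66 and 3.73, and the enteroendocrine genes CHGA and GCG had 3.86 and 4.16. GCG, the precursor of glucagon, was at 0.0508 CPM in animal 12 and at 0.471 to 1.23 CPM in the other 3 linrodostat livers, and at 0 in 5 of 7 CPB livers, so its fold change rests on very few counts.

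TMIGD1 and GPA33, cell surface proteins of the intestinal epithelium, MS4A12, a membrane protein of colonic epithelium, and MMP1, a collagenase, made up with SI the 5 largest changes among ileum-typical genes that have a symbol and at least 2 CPM. Without SI, their log2 fold changes were 4.25 ± 0.69, 4.25 ± 0.79, 4.31 ± 0.72 and 4.24 ± 0.85. The genes without a symbol ENSSSCG00000038606 and ENSSSCG00000037620 had larger ones, 4.63 and 4.49. TMIGD1 stood at 3.56, 11.6, 2.06 and 3.26 CPM in linrodostat livers and at no more than 0.473 CPM in any CPB liver. Animal 18 was the highest linrodostat liver for FABP6, SI, CDH17, OLFM4, LYPD8 and TMIGD1 alike. CORO2A, a coronin of the actin skeleton, had the smallest p of all tested genes. It stood at 1.88, 3.73, 1.88 and 2.20 CPM in linrodostat livers against 0.136 to 0.638 CPM (median 0.298) in CPB livers, a log2 fold change of 2.85 ± 0.35 (edgeR adjusted p = 0.00101).

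Over the 113 called ileum-typical genes, log2 fold changes ran from 1.06 to 4.72 with a median of 3.15. Their levels stayed low: the mean in linrodostat livers ran from 0.51 to 58.7 CPM with a median of 2.94, and 78 of the 113 lay under 5 CPM. For 105 of them every linrodostat liver lay above every CPB liver, which their choice by this same contrast made likely. Over all 1328 tested ileum-typical genes this happened in 13.7%, and over all tested genes in 1.51%. The CPB mean was below the control mean in 110 of the 113, and 19 of them also differed between CPB and control, a comparison in which 26.9% of all tested genes were called. Linrodostat minus control called 100 of the 113, beside 21.8% of all tested genes. These 3 comparisons share libraries, so they are not independent of each other. The 113 were picked for being high in linrodostat against CPB livers and, by class, low in control livers. Their counts in the comparisons with controls thus follow in part from that choice.

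The transcripts of the most ileum-typical genes were also summed to 1 number per liver, called the ileal transcript share after where control pigs express them. By what route these transcripts came to be in the liver libraries was not tested. The share is the summed CPM of 9 genes that control ileum expresses at 20 CPM or more and at least 1000 times above control liver, as a percentage of their summed median in control ileum. Of the 9, SLC10A2 was not called (log2 fold change 2.78, edgeR adjusted p = 0.229). Called genes did not share a common percentage of their control ileum level. The mean in linrodostat livers and the median in control ileum were 58.7 and 3798 CPM for FABP6 and 7.92 and 478.5 CPM for CDH17. For FABP2 they were 18.98 and 130.8 CPM. Why these percentages differed was not tested. The share was 0.368, 1.73, 0.452 and 0.609% in linrodostat livers, 0.0578 to 0.214% (median 0.0788%) in CPB livers and 0.0403 to 0.300% (median 0.101%) in controls. All 4 linrodostat livers lay above all CPB and all control livers. Control livers helped to pick these 9 genes, and the 58 below, for low levels in liver. The low shares of the controls thus follow in part from the rule, and only the comparison with CPB is free of it. The ratio of geometric means, linrodostat over CPB and with 0.01% added to each share, was 6.29. The 2-sided exact permutation test over animals gave p = 0.00303, the smallest p that 4 against 7 animals allow. With a panel of 58 genes at least 100 times higher in control ileum than in each of the other 4 organs, chosen after the data were seen, the shares were 1.14, 3.63, 1.22 and 1.63% against 0.0586 to 0.362% in CPB livers and 0.101 to 0.861% in controls. The ratio of geometric means, again with 0.01% added, was then 9.36, with the same exact permutation p. The same panel had medians of 0.0541% in kidney and 0.0579% in lung of the linrodostat pigs, and 0.0305% and 0.0570% in those organs of CPB pigs. Among the kidneys, that of linrodostat animal 18 stood apart at 0.369%, while the other 18 kidneys were between 0.0211 and 0.0842%. It is the animal with the highest share in liver too. In lung the linrodostat animals, at 0.0369 to 0.217%, lay within the range of the controls, 0.0281 to 0.426%.

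**Figure D2:**
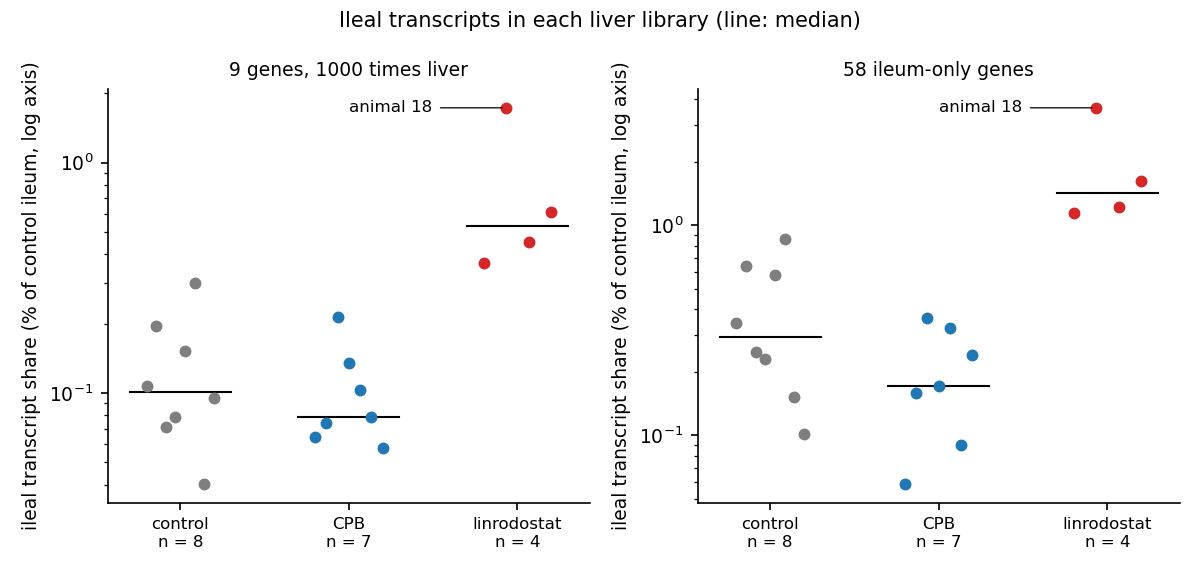
Each point is 1 liver library and each line a group median; the y axis (log scale) is the summed level of 9 genes (left) or 58 ileum-only genes (right) as a percentage of control ileum. The 4 linrodostat livers lie above all 15 others in both panels, with animal 18 the highest at 1.73 and 3.63%. Control livers helped to pick both gene sets, so their low position follows in part from the rule.

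The genes of each gut cell type were also summed. As a percentage of the control ileum level, the summed ileum-typical enterocyte genes had a median of 0.705% in CPB and 2.10% in linrodostat livers, and the ranges, 0.485 to 1.20% and 1.40 to 3.71%, did not overlap. Control livers had a median of 1.62% (0.988 to 2.15%), which lay above the CPB median and overlapped both groups. Stem and secretory cell genes had a median of 0.211% in CPB, 2.37% in linrodostat and 0.455% in control livers. Here the linrodostat range, 1.97 to 6.09%, lay above that of the CPB livers (0.0929 to 0.472%) and of the controls (0.0611 to 1.35%). The ileum-typical class was set with the control livers, so low control levels are partly built in. Medians in CPB, linrodostat and control livers were 3.05, 5.65 and 2.71% for smooth muscle genes, 2.80, 3.85 and 6.65% for T and NK cell genes, and 0.992, 1.37 and 1.53% for B and plasma cell genes, each with overlapping ranges. For both lymphocyte sums the control median was thus the highest of the 3. Liver holds its own smooth muscle and lymphocytes, so for these lists a level in liver does not by itself mark ileum.

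B cell genes were nonetheless called singly. PAX5, the transcription factor of B cell identity, stood at 1.93, 6.29, 1.75 and 2.34 CPM in linrodostat livers and at 0.405 to 1.21 CPM (median 0.697) in CPB livers, with no overlap and a log2 fold change of 1.92 ± 0.40 (edgeR adjusted p = 0.0217). CD79B, a chain of the B cell receptor complex, stood at 2.41, 5.17, 2.64 and 2.56 CPM against 0.190 to 1.34 CPM (median 1.15), also with no overlap (1.73 ± 0.39, edgeR adjusted p = 0.0380). In control livers PAX5 ranged from 0.625 to 2.68 CPM, so 3 of the 4 linrodostat values lay within the control range, and CPB minus control gave -1.16 ± 0.35 (edgeR adjusted p = 0.0179). Of 14 tested members of the B and plasma cell list, 3 were called, all higher, beside 0.759% of all tested genes called higher, and the median log2 fold change was 0.60, beside -0.01. The plasma cell gene JCHAIN, which links antibody units, had 0.10 ± 0.35.

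Outside the gut and B cell lists, 2 lists had a called member. EPCAM, an adhesion protein of epithelia that is listed under bile duct cells (cholangiocytes), stood at 11.8, 22.1, 12.6 and 17.1 CPM in linrodostat livers against 4.79 to 9.70 CPM (median 8.11) in CPB livers, a log2 fold change of 1.06 ± 0.24 (edgeR adjusted p = 0.0415). EPCAM is ileum-typical here, with a control ileum median of 377 CPM. The bile duct keratin KRT19, ileum-typical too, had 1.47 ± 0.35 and missed the threshold with an adjusted p of 0.0535 by edgeR. Bile duct genes that are not ileum-typical had a median of 0.17 over 8 genes, among them SOX9 with 0.24 ± 0.23. LPL, the lipoprotein lipase, was the called member of the adipocyte list, with 1.54 CPM on average in linrodostat and 0.224 CPM in CPB livers (2.74 ± 0.60). Of the 7 tested adipocyte genes, 5 were above 0, beside 48.6% of all tested genes. Their median was 0.31, or 0.14 over the 5 that are not ileum-typical. The defining adipocyte gene PLIN1 had the lowest value of the list, -0.27 ± 0.35.

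Of the 6 called genes that are not ileum-typical, 3 had a level of at least 2 CPM and a symbol. PIEZO1, a stretch-activated ion channel, was higher in linrodostat livers. It stood at 19.4, 21.0, 24.2 and 20.2 CPM, against 9.15 to 17.6 CPM (median 11.3) in CPB livers and 10.4 to 16.2 CPM (median 13.6) in controls. The 4 linrodostat livers lay above all 15 others, and animal 18 was not the highest. The log2 fold change over CPB was 0.80 ± 0.17 with an adjusted p of 0.0226 in edgeR's quasi-likelihood test, while CPB minus control was -0.17 ± 0.14. PIEZO1 lies on chromosome 6 at 914480 to 967113.

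EHD1, which recycles membrane proteins from endosomes, was lower. It stood at 35.9, 48.1, 71.1 and 58.6 CPM in linrodostat livers, at 70.2 to 139 CPM (median 92.5) in CPB livers and at 54.5 to 76.9 CPM (median 62.9) in controls. The linrodostat and CPB ranges touched at 71.1 against 70.2 CPM, and the linrodostat livers overlapped the controls. The log2 fold change over CPB was -0.86 ± 0.19 (edgeR adjusted p = 0.0304). CPB minus control was 0.63 ± 0.15 (edgeR adjusted p = 0.00499) and linrodostat minus control was -0.23 ± 0.18, so the called differences for EHD1 are those of the CPB livers from each of the other groups. EHD1 lies on chromosome 2 at 7299295 to 7321580.

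TARS3 was the called liver-typical gene. It stood at 10.3, 14.2, 8.38 and 10.3 CPM in linrodostat livers, at 14.8 to 29.9 CPM (median 21.8) in CPB livers and at 23.1 to 55.4 CPM (median 38.1) in controls. The groups stepped down from control to CPB to linrodostat, and the linrodostat livers lay below all others. The log2 fold change over CPB was -1.08 ± 0.24 (edgeR adjusted p = 0.0335) and CPB minus control was -0.74 ± 0.19 (edgeR adjusted p = 0.00776). Without linrodostat animal 18, PIEZO1, EHD1 and TARS3 had log2 fold changes of 0.80, -0.82 and -1.24, with adjusted p of 0.120, 0.194 and 0.102 by edgeR, so none of the 3 was called. With the ileum-typical genes removed before the fit, their values were 0.83, -0.83 and -1.04 and the adjusted p was 0.607 for each, because the adjustment then lacks the many small p-values of the ileum-typical genes.

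**Figure D3:**
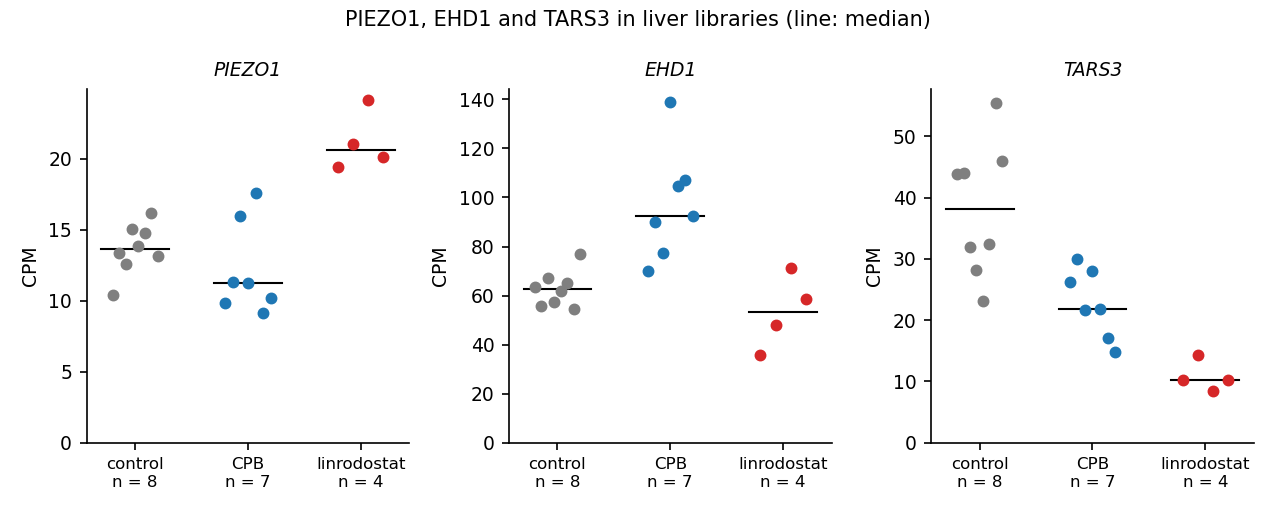
Each point is 1 liver library, each line a group median, and the y axis is CPM from 0. PIEZO1 is higher in the 4 linrodostat livers than in all others, EHD1 is highest in CPB livers, and TARS3 steps down over the 3 groups.

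The other 3 called shared genes were scarce, and they are named although the rule for named genes leaves them out. ENPP7, an alkaline sphingomyelinase of the gut lumen, stood at 0.941, 2.70, 2.15 and 2.12 CPM against 0.0872 to 0.372 CPM (median 0.264) in CPB livers, a log2 fold change of 3.04 ± 0.70. Its control ileum median was 0.509 CPM, so it is not counted as ileum-typical. All 4 linrodostat livers lay above that ileum level. ENSSSCG00000033923 averaged 0.306 CPM in linrodostat, 0.242 CPM in control and 0 in all 7 CPB livers. ENSSSCG00000045877 averaged 0.235, 0.218 and 0.0444 CPM in the same order. For these last 2 the linrodostat livers were at the control level and the CPB livers were the low group.

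No gene of the kynurenine pathway was called between linrodostat and CPB livers. All 12 genes of the list are in the table and 11 were tested, with a median log2 fold change of -0.28 and a range of -0.83 to 0.29, and 2 had an unadjusted p under 0.05, beside 8.42% of all tested genes. IDO1, the target of the drug, was scarce in liver. It stood at 0.864, 4.51, 1.28 and 0.335 CPM in linrodostat livers, at 0 to 4.84 CPM (median 3.06) in CPB livers and at 0.737 to 7.28 CPM (median 1.27) in controls. The groups overlapped fully, with a log2 fold change of -0.53 ± 0.89 and a 95% interval of -2.38 to 1.33, so the interval spans changes of several-fold in either direction. IDO1 lies on chromosome 17 at 9245283 to 9260140, beside its relative IDO2 at 9277039 to 9344405. IDO2 had -0.56 ± 0.52. The transcript level says nothing about how far the enzyme was inhibited.

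TDO2, the main tryptophan-opening enzyme of hepatocytes, stood at 1307, 861, 553 and 485 CPM in linrodostat livers, at 466 to 1465 CPM (median 641) in CPB livers and at 208 to 949 CPM (median 536) in controls. The ranges of linrodostat and CPB livers overlapped, and the log2 fold change was 0.03 ± 0.37 with a 95% interval of -0.75 to 0.81. AFMID, which makes kynurenine from its formyl precursor, had 0.18, KMO, which hydroxylates kynurenine, had -0.21 ± 0.31, and KYNU, which cleaves the product, had 0.29 ± 0.32. The transaminases KYAT1 and KYAT3, which turn kynurenine into kynurenic acid, had -0.74 ± 0.31 and -0.09. KYAT1 stood at 6.08 to 10.2 CPM in linrodostat and 7.76 to 23.7 CPM in CPB livers, with an adjusted p of 0.502 by edgeR.

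HAAO, which makes the direct precursor of quinolinic acid, had the largest difference on the list. It stood at 19.3, 33.2, 53 and 52.5 CPM in linrodostat livers, at 45.0 to 97.5 CPM (median 66.1) in CPB livers and at 107 to 211 CPM (median 148) in controls. The linrodostat and CPB ranges overlapped through animals 20 and 24, and all 11 bypass livers lay below all controls. Linrodostat minus CPB was -0.83 ± 0.27, with a 95% interval of -1.39 to -0.26, an unadjusted p of 0.00645 and an adjusted p of 0.295 by edgeR, so it was not called. CPB minus control was -1.15 ± 0.22 (edgeR adjusted p = 0.00142). QPRT, which takes quinolinic acid on toward NAD, had -0.45 ± 0.22 and ACMSD, which diverts the pathway away from NAD, had -0.28 ± 0.55.

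**Figure D4:**
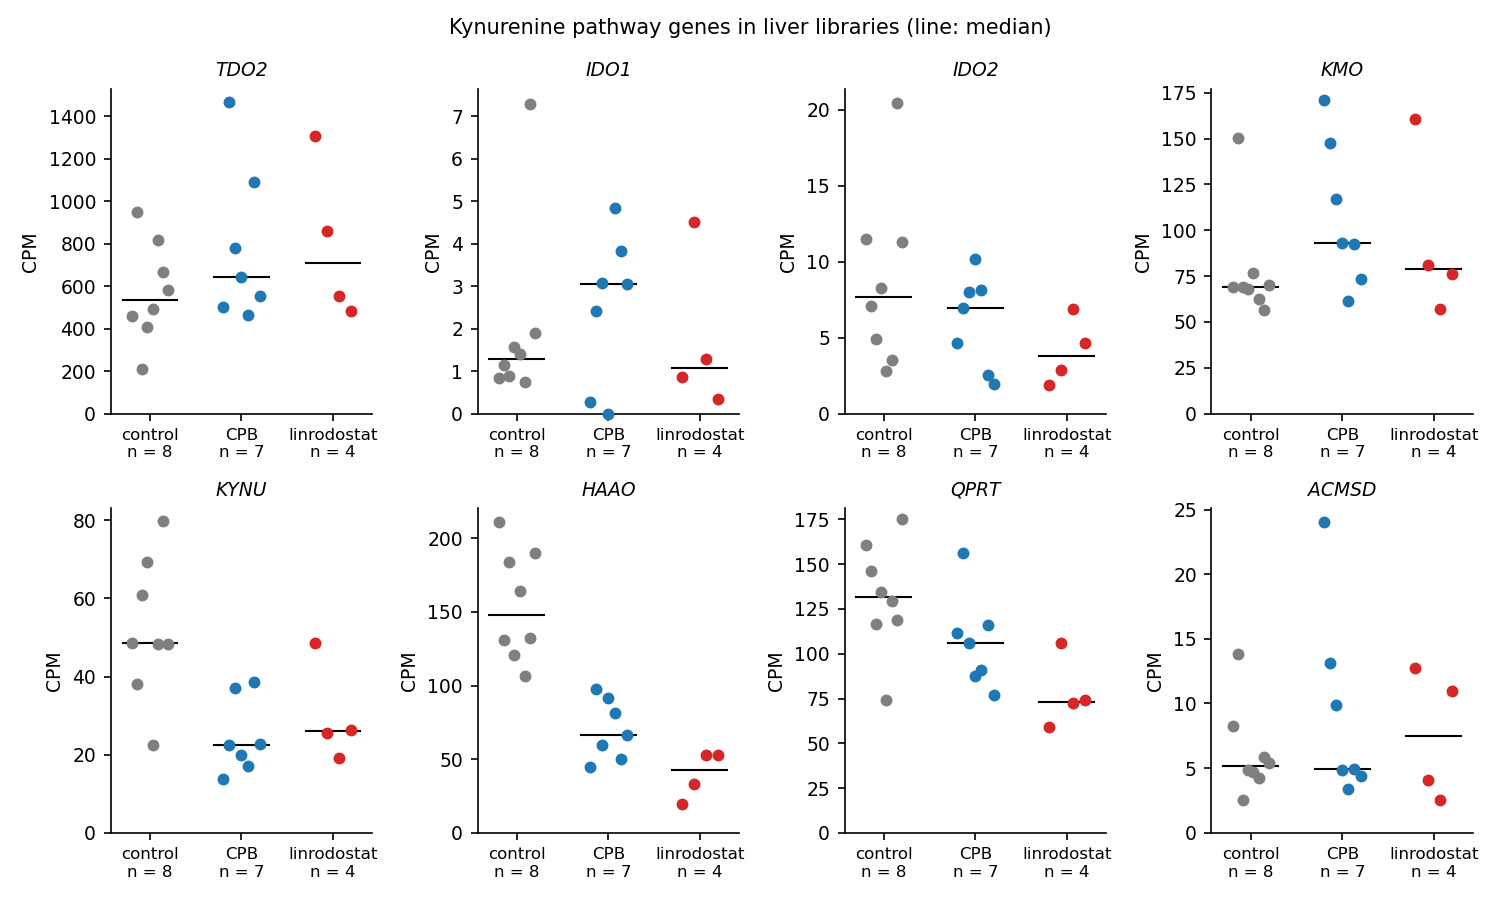
Each point is 1 liver library, each line a group median, and the y axes are CPM from 0. Linrodostat and CPB livers overlap for all 8 genes; HAAO is lower in all 11 bypass livers than in all 8 controls.

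Genes downstream of kynurenine showed no called difference either. Of the 9 tested genes of the AhR list none was called, with a median log2 fold change of 0.53, or 0.02 over the 7 that are not ileum-typical. CYP1A2 stood at 256, 310, 543 and 389 CPM in linrodostat livers and at 275 to 504 CPM (median 362) in CPB livers, a log2 fold change of 0.02 ± 0.30. CYP1A1, the most inducible target, stood at 188, 123, 1993 and 78.9 CPM against 230 to 481 CPM (median 316). Thus 3 linrodostat livers lay below all CPB livers and animal 20 lay far above them, and the log2 fold change was 0.78 ± 0.81 with animal 20 and -1.40 without it. TIPARP and AHRR, which restrain the receptor, had -0.02 ± 0.33 and 1.05 ± 0.61, the latter at under 1 CPM in every group mean.

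Of 13 tested genes for making and using NAD none was called, with a median of -0.08. NMRK1, a kinase for nicotinamide riboside, stood at 7.98, 8.04, 7.55 and 10.5 CPM in linrodostat livers against 8.37 to 23 CPM (median 12.6) in CPB and 16.1 to 37.4 CPM in control livers, a log2 fold change of -0.66 ± 0.26 with an adjusted p of 0.430 by edgeR. NAMPT, which salvages nicotinamide, had 0.04 ± 0.26, and NNMT, which methylates it, had 0.26 ± 0.46.

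The functions by which hepatocytes are known showed no called gene. None of 20 plasma protein genes was called, with a median of -0.17, and 18 of the 20 had a 95% interval within 2-fold in either direction, beside 66.2% of all tested genes. ALB had -0.13 ± 0.16, with an interval of -0.47 to 0.21. APOA2, an apolipoprotein of HDL, had the lowest value of the list, -0.56 ± 0.19 (edgeR adjusted p = 0.311). None of 25 coagulation and complement genes was called (median -0.13, and 23 of 25 intervals within 2-fold). None of 22 genes of oxidative phosphorylation was called (median -0.06), and all 22 intervals lay within 2-fold.

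Metabolic lists had no called gene either, and their genes were measured less precisely. The urea cycle list had 8 tested genes, 0 called and a median of -0.07, with 4 intervals within 2-fold. CPS1, its entry enzyme, had 0.33 ± 0.46, and ARG1, which releases urea, had -0.03 ± 0.71. The drug metabolism list had 15 tested genes, 0 called and a median of -0.05. CYP3A29, the pig counterpart of the main human drug-metabolising CYP3A enzymes, had -0.78 ± 0.41 (edgeR adjusted p = 0.645), and CYP2E1 had 0.06 ± 0.31. Of 13 genes for bile acids, the list had 0 called and a median of 0.13, or 0.07 over the 11 that are not ileum-typical. The lists for fatty acid synthesis (13 tested) and the acute phase (14 tested) had 0 called too, with medians of 0.16 and 0.17. CYP7A1, the rate-limiting enzyme of bile acid synthesis, had -1.21 ± 0.90, and SLC51B, a subunit of the basolateral bile acid exporter, had 1.52 ± 0.50 but is ileum-typical and was not called (edgeR adjusted p = 0.292). All 4 linrodostat livers, at 2.67 to 6.43 CPM, lay above the highest CPB liver at 2.59 CPM for SLC51B.

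Sterol genes were low in both bypass groups. Cholesterol synthesis had 15 of 22 genes lower in CPB than in control livers (median log2 fold change -1.40), a comparison in which 26.9% of all tested genes were called. In linrodostat against control livers 15 of 22 were lower (median -1.52), beside 21.8% of all tested genes called. Between linrodostat and CPB, 0 of 22 were called (median -0.04), with 12 intervals within 2-fold. SQLE, the squalene epoxidase, stood at 5.54, 8.96, 6.97 and 7.78 CPM in linrodostat livers, at 4.21 to 9.97 CPM (median 5.98) in CPB livers and at 16.6 to 135 CPM (median 78.1) in controls. Its log2 fold change over CPB was 0.12 ± 0.43. INSIG1, which holds back sterol synthesis, had 0.84 ± 0.61. The type I interferon list had 25 tested genes and 0 called between linrodostat and CPB, with a median of -0.29, but only 2 intervals lay within 2-fold.

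Among stellate cell, fibroblast and collagen genes, 0 of 22 tested were called. Of the 22, 20 had a log2 fold change above 0, beside 48.6% of all tested genes, and 6 had an unadjusted p under 0.05, beside 8.42%. The median was 0.32. RGS5, a marker of pericytes, stood at 5.52, 5.80, 4.80 and 6.33 CPM in linrodostat livers, at 1.32 to 3.57 CPM (median 3.07) in CPB livers and at 1.49 to 4.58 CPM (median 3.74) in controls. The linrodostat livers lay above all others, with a log2 fold change of 1.12 ± 0.33 and an adjusted p of 0.181 by edgeR. COL4A1, a basement membrane collagen, had 0.54 ± 0.18, and the PDGF receptor PDGFRB had 0.42 ± 0.14. COL1A1 and COL3A1, the main fibrillar collagens, had 0.29 ± 0.37 and 0.11 ± 0.31. The summed ileum-typical smooth muscle genes were 45.6 to 158 CPM in CPB and 58.6 to 144 CPM in linrodostat livers, and their part in the collagen values was not tested.

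**Figure D5:**
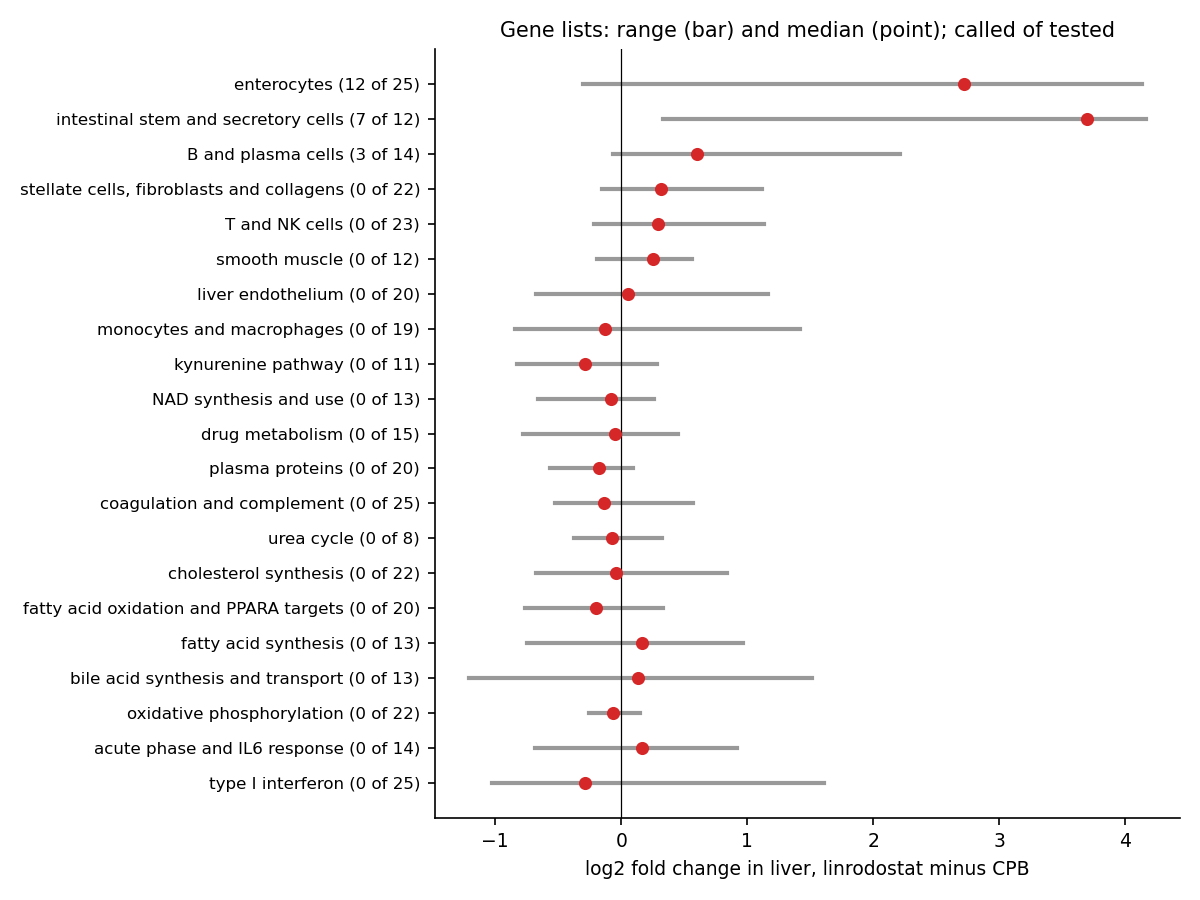
Each bar spans the lowest to the highest log2 fold change (linrodostat minus CPB, x axis) of the tested genes of a list and the red point is the median; labels give called of tested genes. The 2 gut lists have medians of 2.72 and 3.69, and the medians of the lists of hepatocyte and metabolic genes, from the kynurenine pathway to the acute phase, lie between -0.28 and 0.17.

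Over all 42 lists, 37 had no called gene, with 575 tests among their members, in a comparison that called 0.772% of all tested genes. Of the clock genes, NPAS2, a partner of the core clock factor BMAL1, stood at 6.15, 8.15, 11.8 and 8.17 CPM in linrodostat livers against 3.71 to 6.82 CPM (median 4.53) in CPB livers (0.74 ± 0.21, edgeR adjusted p = 0.167). The output factors DBP and TEF had -1.05 ± 0.45 and -1.09 ± 0.48, with adjusted p of 0.520 and 0.546 by edgeR.

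The difference linrodostat minus CPB in liver was set against that in kidney and in lung of the same animals. The difference liver minus kidney was called for 37 of 18227 genes (0.203%), all with the more positive value in liver, and 35 of them were ileum-typical. AMN, a gut and kidney protein for vitamin B12 uptake, had a log2 fold change of 3.91 in liver and -0.27 in kidney, a difference of 4.18 ± 0.56 (edgeR adjusted p = 0.000134). TMIGD1 (difference 4.47), LRRC1 (1.39), LRRC19 (3.94) and OSR2 (4.04) followed. With the animal as a block, 16 genes were called, among them AMN with an adjusted p of 0.00413, whereas OSR2 was not, with 0.0720. The gut genes FABP6, SI and CDH17 had log2 fold changes of 1.79, 1.43 and 1.61 in kidney beside 4.02, 4.13 and 4.02 in liver. In lung they had -0.93, -1.44 and -0.10. The SE of their liver minus kidney differences was 2.26, 10.9 and 1.24, so these are poorly known. By the panel of 58 genes, kidney 18 had 0.369%. The other linrodostat kidneys, at 0.0325 to 0.0741%, lay within the CPB range of 0.0251 to 0.0842%. For none of the 3 was the difference from kidney or from lung called, with or without the block.

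Liver minus lung was called for 22 of 18497 genes (0.119%), of which 19 were ileum-typical and 21 were more positive in liver. CORO2A had the smallest p, with a difference of 2.77 ± 0.40 (edgeR adjusted p = 0.000556, or 0.0327 with the animal as a block). TMEM236, KCNJ13, NAALADL1 and GREM1 came next, and with the animal as a block their adjusted p was between 0.0632 and 0.0675, so none of these 4 was called. EHD1 was the gene more negative in liver: it had -0.84 in liver and 0.21 in lung, a difference of -1.05 ± 0.23 with an adjusted p of 0.0442 by edgeR, which rose to 0.136 with the animal as a block. The other 2 that are not ileum-typical were ZC2HC1C and IRX3, with differences of 5.80 and 3.05, and ZC2HC1C and ENSSSCG00000039977 were the 2 in the comparison with kidney. With the block, 2 genes were called for lung, CORO2A and 1 with no symbol.

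TARS3 had a log2 fold change, linrodostat minus CPB, of -1.05 in liver and -1.09 in lung, a difference of 0.04 ± 0.34, and -0.28 in kidney. PIEZO1 had 0.22 in kidney and 0.34 in lung beside 0.80 in liver, and neither difference was called (edgeR adjusted p = 0.760 and 0.975). With the ileum-typical genes removed, no gene was called for either organ pair.

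The result for the ileum-typical genes rested on animal 18 in its count but not in its direction. Without linrodostat 18, 1 gene (CORO2A, adjusted p = 0.0122 by edgeR) was called in place of 119. All 113 ileum-typical genes still had a positive log2 fold change and an unadjusted p under 0.05 with the 3 remaining linrodostat livers, with a median of 2.77, and their adjusted p ran from 0.0122 to 0.479. FABP6 had 3.51 with an adjusted p of 0.109. The 113 had been called with these same 3 livers and CPB livers, so their sign and unadjusted p were largely set by that choice. Over all tested ileum-typical genes, called or not, the median log2 fold change was 0.35 without animal 18, beside 0.47 with it. Leaving out animal 12, 20 or 24 left 128, 97 and 74 genes called. Leaving out 1 CPB animal left 65 (animal 6) to 137 (animal 19) called; without animals 2, 11, 21 and 25 the counts were 71, 73, 69 and 74, and without animal 9 the count was 123. With the ileal transcript share as a covariate in the fit, 0 genes were called by edgeR (579 at an unadjusted p under 0.05, beside 1297 without it), and the median log2 fold change of ileum-typical genes was 0.13 in place of 0.47. The share is summed from ileum-typical genes and does not overlap between the linrodostat livers and the 15 others, so this fit cannot tell the share and the drug apart. PIEZO1, EHD1 and TARS3 lost their calls in it as well, with log2 fold changes of 0.62, -0.94 and -1.11 beside 0.80, -0.86 and -1.08 without it. With the ileum-typical genes removed, 0 of 14078 genes were called by edgeR (886 at an unadjusted p under 0.05). On all genes and without the covariate, DESeq2 called 208 genes, of which 173 were ileum-typical, and limma-voom called 157, of which 147 were.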

How the data were processed

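The data are a deposited table of expected counts per Ensembl gene for 5 organs of 19 pigs (poly(A) RNA-seq): estimated read numbers, which sum to different totals in each library and so were not scaled by the authors. The submitters' processing notes list STAR, Salmon, Trim Galore, cutadapt, bcl2fastq and MultiQC with the Sscrofa11.1 build. The program that made the counts, its strand setting and the annotation release are not given in the sources used here, so copies of a gene, overlapping genes and antisense genes may share reads. The table pairs 17508 of its 35670 gene IDs with a symbol; 223 more were matched to a symbol through a separate ID list, and 17939 stayed unnamed. Coordinates are RefSeq's for Sscrofa11.1, matched by symbol.

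Values were rounded to whole counts; 92.7 to 96.6% of the values in a library were whole already. The 19 liver libraries were fitted together in R 4.3.3 with edgeR 4.0.16 (filterByExpr, TMM scaling, robust quasi-likelihood fit without covariates; biological coefficient of variation 0.356), and the contrast linrodostat minus CPB was tested 2-sided. In counts simulated from these libraries, 47% of 2-fold and 98% of 4-fold changes were recovered, and 2.03% of 148 calls were false. Changes were put only into genes with a mean of at least 1 CPM, and each gene was drawn independently. These rates therefore do not carry over to scarcer genes or to genes that move together across animals. All liver libraries bear batch label 1. Organ differences were fitted on the libraries of both organs without a block. The animal numbers pair the organs because the labels give the same animal; correlations of same-animal deviations had medians of 0.272 with kidney and 0.240 with lung.

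The members and the 42 gene lists (747 genes asked for, 668 in the table) were chosen with earlier results of these data known. Named genes are the 8 highest and 8 lowest called genes that are not ileum-typical and the 5 highest and 5 lowest that are, each with a symbol and at least 2 CPM in the higher group, up to 3 called members of each list, the 5 smallest p of each organ difference with a symbol, and 15 genes always named (IDO1, IDO2, TDO2, KMO, KYNU, HAAO, QPRT, ACMSD, CYP1A1, CYP1A2, AHRR, TIPARP, FABP6, APOA4 and ALB); other genes named as list members were picked after their values were seen, and a few genes that the rule names or the lists hold are not reported here. Alternatives were RLE scaling, no filter, 2 arms only, sex as a covariate, DESeq2 1.42.0, limma 3.58.1 (voom), the ileal share as a covariate, ileum-typical genes removed, no robust estimation, other class ratios and leaving out each animal.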

Additional observations from a re-analysis of the deposited data

Results flagged for a closer look

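Within a group, a library was looked at again where its gap to the nearest other exceeded the critical value of Dixon's test on log2(CPM + 0.1); chance flags about 1 in 20 sets of values, and 13 were flagged in 312 sets. In linrodostat livers, animal 18 stood apart for the B cell gene CD79B at 5.17 CPM (others 2.41 to 2.64) and for the bile acid exporter subunit SLC51B at 6.43 CPM (others 2.67 to 3.01), and animal 24 for the drug-metabolising enzyme CYP2E1 at 2784 CPM (others 1264 to 1316). In CPB livers, animal 2 was lowest for CD79B at 0.190 CPM (others 0.639 to 1.34), and animal 9 was highest for the BMP antagonist GREM1 at 0.464 CPM (others at no more than 0.110).

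In control livers, animal 4 was highest for the urea cycle enzyme ARG1 at 1707 CPM (others 54.2 to 278), for KMO at 150.0 CPM (others 56.2 to 76.4) and for NMRK1 at 37.4 CPM (others 16.1 to 23.1). Animal 15 was highest for IDO1 at 7.28 CPM (others 0.737 to 1.89), animal 14 for the clock output gene DBP at 5.95 CPM (others 1.24 to 1.67) and animal 1 for KYAT3 at 78.5 CPM (others 52.2 to 61.3). Animal 13 was lowest for QPRT at 74.0 CPM (others 117 to 175) and animal 14 for the iron hormone HAMP at 50.2 CPM (others 164 to 433). These are reference animals, and they enter the linrodostat against CPB contrast only through the spread.

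The difference linrodostat minus CPB was not the same in liver and kidney for 37 genes, and in liver and lung for 22 genes, by edgeR's test without a block. Of these, 35 and 19 were ileum-typical, and with the ileum-typical genes removed no gene was called. The organs come from the same animals, and with the animal as a block 16 and 2 genes were called.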

How the results depend on the processing

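Between linrodostat and CPB livers, 119 genes were called, 117 higher and 2 lower, of which 113 were ileum-typical, 5 shared and 1 liver-typical, and 24 were list members. DESeq2 called 208 (183 higher, 25 lower; 173 ileum-typical, 32 shared, 3 liver-typical), and limma-voom called 9 shared genes; the cause was not tested. With the 2 bypass arms alone, 1 gene was lower and 2 shared genes were called, from fewer samples. With the ileal share as a covariate, which cannot be told apart from the group, all of these counts were 0 (smallest adjusted p 0.707), and with ileum-typical genes removed they were 0 too (smallest 0.448), here with fewer genes tested; LPL reversed to -0.12 with the covariate (adjusted p = 1.00, edgeR). RLE scaling, no filter, sex as a covariate and no robust estimation gave 107 to 123 calls. Leaving out 1 animal gave 1 to 137 calls (1 to 130 higher, 0 to 7 lower; 1 to 122 ileum-typical, 0 to 14 shared, 0 to 1 liver-typical, 0 to 23 list members), with 1 call without linrodostat 18. The ileal share ratio of 6.29 ran from 4.55 to 7.57 without 1 animal and was 22.3 as a median over genes (exact permutation p = 0.00606). As a median over genes the share was 0 in CPB livers 6, 11 and 25, so the size of 22.3 depends on the 0.01% added. No paired analysis was possible because CPB and linrodostat livers come from different animals; for the differences between organs, the animal as a block took the calls from 37 to 16 for kidney and from 22 to 2 for lung, removing ileum-typical genes took both to 0, and leaving out 1 linrodostat animal gave 1 to 22 and 1 to 15. Changes of IDO1, GCG and other genes near or under 1 CPM are limited by depth.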

Other observations

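No gene of the monocyte and macrophage list was called between linrodostat and CPB livers (19 tested). Of the 19, 6 had a log2 fold change above 0, beside 48.6% of all tested genes, and the median was -0.13. The monocyte and granulocyte genes S100A8 and S100A12 had 0.82 ± 0.50 and 0.47 ± 0.50. The Kupffer cell genes MARCO and TIMD4 had -0.85 ± 0.48 and -0.18 ± 0.21. MARCO had the lowest value of the list and LYZ the highest. LYZ, the lysozyme of macrophages and Paneth cells, averaged 23.3 CPM in linrodostat, 8.68 CPM in CPB and 9.61 CPM in control livers (1.42 ± 0.40, edgeR adjusted p = 0.149), and it is ileum-typical. Endothelial genes of the liver had a median of 0.05 with 17 of 20 intervals within 2-fold and no call.

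The iron hormone HAMP averaged 692 CPM in linrodostat, 366 CPM in CPB and 238 CPM in control livers, a log2 fold change of 0.92 ± 0.52 over CPB (edgeR adjusted p = 0.679). TAT, a glucocorticoid-induced enzyme of tyrosine breakdown, averaged 1537 CPM in linrodostat and 768 CPM in CPB livers (1.00 ± 0.71, edgeR adjusted p = 0.774). AADAT, another kynurenine transaminase, did not pass the filter on low counts.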
